A study of Mus musculus with 36 samples.

Results

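The genes described here are 10 components of bone morphogenetic protein (BMP) signalling, followed by RNA-seq through the differentiation of female mouse embryonic stem cells (mESCs). They were chosen by symbol: the ligands Bmp2, Bmp4 and Bmp7, the genes Id1, Id2, Id3 and Id4, the inhibitory Smad gene Smad6, and the homeobox genes Msx1 and Msx2. All 10 have a row among the 25965 genes of the deposited table, and all 10 passed the filter on low values that left 14612 genes for testing. The cells were Xmas mESCs, female C57/Bl6 lines in which Hprt carries GFP on the first X chromosome and mCherry on the second, and no group received any further agent or deletion. Day 0 cells came from 2i and LIF medium, which combines kinase inhibitors and a cytokine that hold mESCs naive, and differentiation was brought about by weaning them in steps of 25% into DME HiHi, a serum medium without LIF, on gelatin and without feeder cells. Libraries were made on each of 9 days (days 0 to 8), 4 per day, from the lines X14 and X18, each with a library called double and a library called single. What these words stand for is not stated in the labels, so they serve as names only. The study calls the libraries of a day independent replicates, while the labels do not say whether they came from separate cultures. If they did not, p-values measure only the spread between these libraries, which may be technical.

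BMP ligands bind type I and type II serine/threonine kinase receptors, which phosphorylate Smad1, Smad5 and Smad9, and these enter the nucleus with Smad4. The Id genes are direct targets of that signal and encode helix-loop-helix (HLH) proteins without a DNA-binding region, which pair with E proteins and keep them off DNA. In mESCs, BMP acting through Id proteins together with LIF is known to hold back neural differentiation, and in the early embryo BMP4 acts in forming the germ line, mesoderm and surface ectoderm. Smad6 restrains the pathway, and Msx1 and Msx2 are homeobox factors that answer to BMP in many embryonic tissues.

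The 4 Id genes are close relatives, so the stretch of coding sequence that they share most visibly is shown first, to let a reader judge how well short reads could tell them apart. Each line gives 60 coding bases of the HLH region, 5′ to 3′ on the coding strand of the GRCm38 reference (GENCODE M21 annotation), and capitals mark the 36 positions at which all 4 genes carry the same base.
Id1, chr2:152736572-152736631, plus strand: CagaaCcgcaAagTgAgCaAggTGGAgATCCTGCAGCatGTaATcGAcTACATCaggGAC
Id2, chr12:25095789-25095848, minus strand: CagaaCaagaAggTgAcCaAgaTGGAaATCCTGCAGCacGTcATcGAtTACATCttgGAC
Id3, chr4:136144056-136144115, plus strand: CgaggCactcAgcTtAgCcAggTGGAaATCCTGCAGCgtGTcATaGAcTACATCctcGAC
Id4, chr13:48261747-48261806, plus strand: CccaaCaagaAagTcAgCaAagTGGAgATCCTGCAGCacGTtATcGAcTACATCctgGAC
In each gene the 60 bases lie in a single coding exon. Against Id1, the window of Id4 has 49 equal bases, that of Id2 has 48 and that of Id3 has 41. The longest run of bases that any pair of Id transcripts shares without a mismatch is 19 bases, against reads of 75 bp. Msx1 and Msx2 share a coding run of 22 bases, tggagcgcaagttccgccagaa, at chr5:37821589-37821610 and chr13:53468482-53468503, both on the minus strand. The longest run shared by any pair of the ligands is 28 bases.

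Before the comparisons, some facts of the libraries bear on every value. Each library held between 612740 and 2445826 reads in genes, so many values of low genes rest on few reads. A floor of 3 reads per library is used as the limit of detection, and it covers counting error only. Levels are given in RPKM, reads per kilobase of exon scaled to the size of the library, with a gene without reads given as 0. X-linked expression relative to the autosomes was higher in the double library than in the single library in 17 line-day pairs, with a log2 difference of 0.19 to 1.17, and lower in the X14 pair of day 0, with a log2 difference of -1.29. The X14 day 0 libraries therefore go against their labels in that measure, and results that rest on day 0 or on the labels are also given without them where a call changes. The listed mESC markers (Pou5f1, Sox2, Nanog, Zfp42, Klf4, Esrrb and Tfcp2l1) all had reads on day 0, when their summed level was 3961 to 5024 RPM (reads scaled to library size alone), and all 7 were called lower on day 8, when the sum was 364 to 723 RPM. On day 4, 5 of the 7 were called lower, all except Pou5f1 and Sox2, so the sum is not a measure of the naive state alone. In these bulk libraries, more cells of a type that expresses a gene and more RNA per cell cannot be told apart.

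Id1, Id2 and Id3 were called higher on days 3 to 8 and stood high together on day 4, and Id4 did not share that course. Id1 had 0, 0.399, 0 and 0.736 RPKM in the 4 libraries of day 0, given in the order X14 double, X14 single, X18 double and X18 single throughout, which is 2 reads in all. On day 4 it stood at 110, 50.2, 119 and 50.3 RPKM. No library of day 4 came near the day 0 values, and the double libraries of both lines stood above both single libraries. The pooled read ratio between day 4 and day 0 was 308 (exact 95% counting interval 84.9 to 2548), and the log2 fold change by limma was 7.14 (SE 0.30, adjusted p 1.82e-18). Fold changes against a day with few reads depend on the value the authors wrote for a gene without reads, which was that of 0.9 read.

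Id2 was the first of the genes to be called. It had 3.64, 2.55, 2.43 and 1.34 RPKM on day 0 and 12.8, 7.84, 5.50 and 16.1 RPKM on day 1, and the days did not overlap. The log2 fold change on day 1 was 2.05 (SE 0.42, limma adjusted p 0.0443), which sits next to the threshold, and the call was lost in 11 of 15 alternative fits, with adjusted p up to 0.998. On day 2 Id2 had reached 30.8, 11.6, 30.2 and 21.1 RPKM, and the log2 fold change was 3.22 (SE 0.42, limma adjusted p 2.19e-05). On day 4 the values were 95.8, 40.2, 114 and 44.6 RPKM, with a log2 fold change of 4.82 (SE 0.42, adjusted p by limma 1.68e-10). From then on Id2 stayed between 29.2 and 92.6 RPKM in every library of days 5 to 8, at a mean of 61.5 ± 15.2 RPKM (SD, n = 4) on day 8.

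Id3 stood high on days 4 and 8, with a lower level between them. It had 0.258, 2.59, 3.44 and 2.38 RPKM on day 0, 7.08, 3.22, 4.46 and 9.63 RPKM on day 1 and 3.36, 2.60, 2.14 and 5.0 RPKM on day 2. Each library of day 1 was above that of the same name and line on day 0 and on day 2, but the ranges of days 0 and 1 overlapped. The log2 fold change on day 1 was 1.87 (SE 0.47, adjusted p by limma 0.236), which is no call, while with thinned reads it was called (limma adjusted p 0.0307). On day 4 Id3 had 49.9, 31.8, 39.0 and 28.2 RPKM, a log2 fold change of 4.57 (SE 0.47, adjusted p by limma 5.03e-09). On day 5 it was at 4.35, 6.43, 5.93 and 6.60 RPKM. Every library of day 5 lay below every library of day 4, which holds for 1 of the 10 genes (Id3) and for 12.8% of all genes tested. Id3 then stood at 12.9 ± 2.53 RPKM on day 6 and 10.4 ± 2.79 RPKM on day 7 (SD, n = 4), and rose to 25.5, 47.7, 35.0 and 49.2 RPKM on day 8, a log2 fold change of 4.64 against day 0 (SE 0.47, limma adjusted p 9.64e-10). Every day 8 library lay above every day 7 library for Id3 and for Id1, 2 of the 10 genes, against 2.09% of all genes tested. These steps between neighbouring days were picked out after their values were seen and carry no test.

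Id1 fell back more gradually than Id3. It stood at 51.8 ± 8.40 RPKM on day 5, with day 5 libraries (45.2 to 63.8 RPKM) inside the range of day 4 (50.2 to 119 RPKM) or just below it. The 4 libraries of day 6 lay within 24.6 to 26.2 RPKM. Id1 was at 16.7 ± 4.92 RPKM on day 7 and at 39.6 ± 10.9 RPKM on day 8 (SD, n = 4), when the log2 fold change against day 0 was 6.16 (SE 0.30, limma adjusted p 3.28e-17).

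Id4 was low throughout. On day 0 it had 2.23, 2.23, 1.24 and 2.06 RPKM, from 2 to 8 reads per library, and from day 1 its daily mean was at or below the level that 3 reads give. On day 8 the values were 0.313, 1.17, 0.524 and 0 RPKM, all below those of day 0. The log2 fold change on day 8 was -1.67 (SE 0.64, limma adjusted p 0.0333), and without the X14 libraries of day 0 the call was lost (-1.43, limma adjusted p 0.144). Id4 was also called lower on days 3, 4 and 7, and the calls of all 4 days were lost without those libraries.

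**Figure D1:**
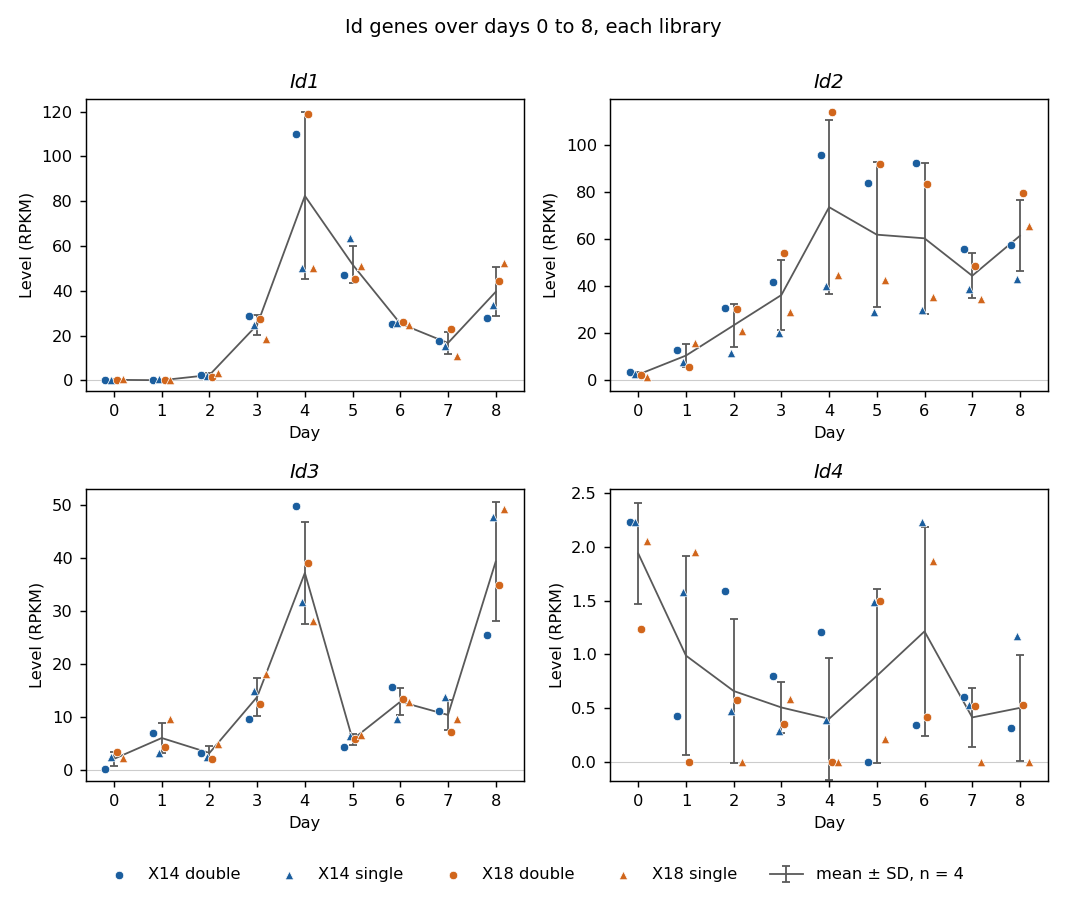
Levels in RPKM (linear vertical axes) of Id1, Id2, Id3 and Id4 by day in each of the 36 libraries, with colour for the line, shape for double or single, and the line for the daily mean ± SD of 4 libraries. Id1 and Id3 peak on day 4 and are higher again on day 8, Id2 stays high with its double libraries (circles) above its single libraries (triangles) of the same line from day 2, and Id4 is near the detection limit.

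Per length, the order of the Id genes changed over time. On day 0 the levels of Id2 (2.49 ± 0.940 RPKM), Id3 (2.17 ± 1.35 RPKM) and Id4 (1.94 ± 0.474 RPKM) overlapped, and Id1 was at the floor (0.284 ± 0.355 RPKM; SD, n = 4 for each). On day 2 Id2 alone made up 77.2% of the summed RPKM of the 4 genes. On day 4 the ranges of Id1 (82.2 ± 37.2 RPKM) and Id2 (73.6 ± 36.9 RPKM) overlapped, but Id1 was above Id2 in each of the 4 libraries. The range of Id3 (37.2 ± 9.59 RPKM) overlapped that of Id2 but not that of Id1, and Id3 was below Id2 in each library. On day 8 the share was 43.8% for Id2, 28.1% for Id3, 27.7% for Id1 and 0.385% for Id4. The summed level of the 4 genes rose from 6.88 ± 0.715 RPKM on day 0 to 193 ± 81.9 RPKM on day 4, was 72.1 ± 13.2 RPKM on day 7 and 141 ± 26.6 RPKM on day 8 (SD, n = 4).

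The ligand genes had their highest daily means on day 8, while Id1 and Id2 had theirs on day 4. Bmp4 had 2 reads in all on day 0 (0, 0, 0 and 0.768 RPKM). It was at 2.10, 0.848, 1.55 and 1.75 RPKM on day 3, and then at 0.817 ± 0.397 RPKM on day 4 and 0.640 ± 0.821 RPKM on day 5 (SD, n = 4), below the level that 3 reads give. Day 3 was called (log2 fold change 2.19, SE 0.53, limma adjusted p 0.00617), but not without the X14 libraries of day 0 (1.39, limma adjusted p 0.0835). On day 7 Bmp4 stood at 6.97, 3.18, 6.55 and 9.99 RPKM, and on day 8 at 8.64, 7.65, 11.3 and 9.63 RPKM. All libraries of these days exceeded every library of days 0 to 6. The pooled read ratio of day 8 to day 0 was 64.4 (exact 95% counting interval 17.4 to 538), and the log2 fold change was 4.82 (SE 0.53, limma adjusted p 5.45e-09).

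Bmp7 fell first and rose afterwards. It had 3.68, 3.0, 0.256 and 1.49 RPKM on day 0, with both X14 libraries above both X18 libraries. On day 4 it had 0.167, 0.161, 0 and 0 RPKM, which is 2 reads in all, and the log2 fold change was -3.32 (SE 0.71, limma adjusted p 0.000736). On day 6 it stood at 11.1, 7.68, 7.39 and 5.55 RPKM and on day 8 at 9.95, 15.2, 14.5 and 19.8 RPKM, above every library of days 0 to 5. Against day 0 the day 8 mean was 7.07-fold higher, with a log2 fold change of 3.34 (SE 0.71, adjusted p by limma 0.000268). Against day 4 the pooled read ratio was 186 (exact 95% counting interval 51.1 to 1542). The fall on day 3 (log2 fold change -2.11, SE 0.71, limma adjusted p 0.0453) was at the edge of the threshold, and its call was lost in 9 of 15 alternative fits, among them the fit without the X14 libraries of day 0 (-0.89, limma adjusted p 0.423). The fall on day 4 was called in all 15.

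Bmp2 had no read in any library from day 0 to day 6. It had 12 reads on day 7 (0.844, 0.746, 0.241 and 0.403 RPKM) and 25 reads on day 8 (0.438, 2.32, 0.734 and 0.669 RPKM). Every library of days 7 and 8 thus held at least 1 read, and the day 8 mean was at least 1.76-fold higher than the floor of 3 reads per library on day 0 (limma adjusted p 0.00014). Bmp2 passed the filter on low values only through days 7 and 8. Its p-values and calls for these days come from the values that let it pass, and they are not independent support. The day 7 mean was below the level of 3 reads per library, so no fold is given, and its call was lost in 5 of 14 alternative fits, among them the fit without the X14 libraries of day 0 (1.07, limma adjusted p 0.122). The 17 reads of the X14 single library made up most of the day 8 reads. Without that library the day 8 mean was 0.614 RPKM, below the level that 3 reads per library give on day 8 (0.647 RPKM), so no fold is given.

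**Figure D2:**
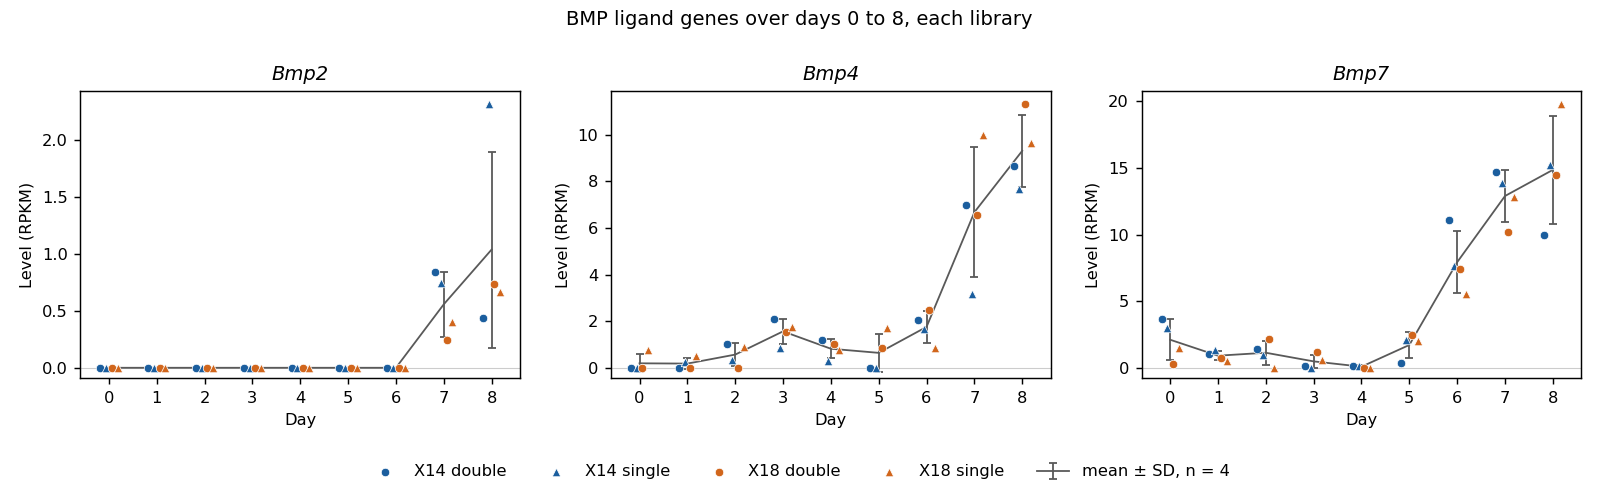
Levels in RPKM (linear vertical axes, a scale per gene) of Bmp2, Bmp4 and Bmp7 by day in each library, with the daily mean ± SD of 4 libraries. Bmp7 passes through its lowest point on day 4 (0 to 0.167 RPKM), and all libraries of days 7 and 8 hold reads of all 3 ligand genes.

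The homeobox genes took separate courses. Msx1, with no read on days 0 and 1, had 4.52, 1.0, 3.49 and 0.579 RPKM on day 4, when the mean was at least 2.20-fold higher than the floor of day 0 (limma adjusted p 0.00238). The double library held more than the single library in both lines that day. On all other days the daily mean of Msx1 was below the level that 3 reads give. Msx2 had between 1 and 4 reads in all on each of days 0 to 5. On day 6 its values were 5.29, 0, 2.25 and 0 RPKM, so that only the double libraries had reads, and the call of that day (log2 fold change 1.84, SE 0.70, limma adjusted p 0.0314) was lost in 10 of 14 alternative fits, among them the fit without the X14 libraries of day 0 (1.62, limma adjusted p 0.122). On day 7 Msx2 stood at 11.4, 3.96, 5.58 and 0.876 RPKM and on day 8 at 17.3, 11.1, 29.4 and 6.78 RPKM, all above those of day 0. The pooled read ratio of day 8 to day 0 was 127 (exact 95% counting interval 34.8 to 1056), and the log2 fold change was 5.57 (SE 0.70, limma adjusted p 6.46e-08). Msx2 passed the filter on low values only through days 6 to 8. Its p-values and calls for these days come from the values that let it pass, and they are not independent support.

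Smad6 was called by limma on none of days 1 to 8. Its daily means ran from 1.37 ± 0.545 RPKM on day 7 to 3.57 ± 2.11 RPKM on day 5 (SD, n = 4), and it had 1.52 ± 0.639 RPKM on day 0 and 1.56 ± 0.628 RPKM on day 8. On day 5 the values were 4.06, 1.28, 6.24 and 2.71 RPKM, with the double library higher in each line. Over the 9 days the moderated F test of limma gave an adjusted p of 0.181 for Smad6.

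**Figure D3:**
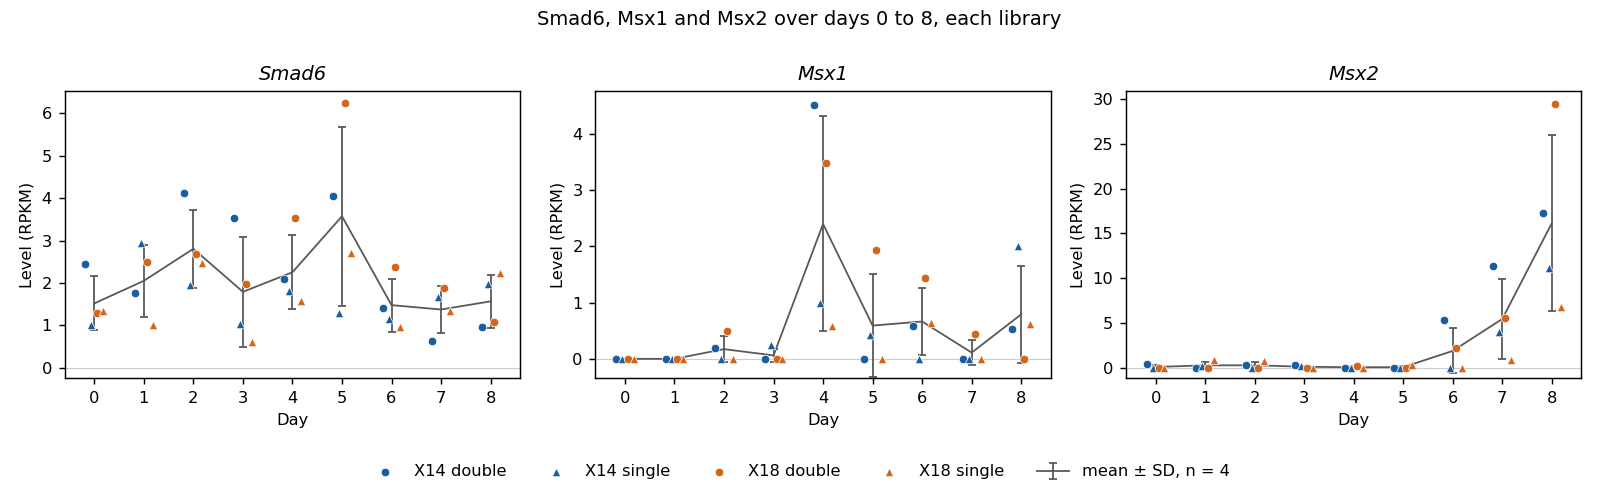
Levels in RPKM (linear vertical axes, a scale per gene) of Smad6, Msx1 and Msx2 by day in each library, with the daily mean ± SD of 4 libraries. Msx1 has reads in all libraries on day 4 only, Msx2 is high on days 7 and 8, and each of days 1 to 8 of Smad6 overlaps day 0.

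Counted over all 10 genes, calls needed a limma adjusted p under 0.05 and a log2 fold change of at least 1 either way, and each count stands here beside the share of all genes tested that met the same rule. Against day 0, 1 gene was called on day 1 (0.0684% of all genes) and 2 on day 2 (2.96%), both times higher. On day 3, 4 genes were higher and 2 lower (8.89% of all genes called), and on day 4 again 4 were higher and 2 lower (18.6%). The genes higher on day 4 were Id1, Id2, Id3 and Msx1, and the lower genes were Bmp7 and Id4. On day 5, 3 genes were higher (26.8%), namely Id1, Id2 and Id3, and on day 6, 6 genes were higher (33.4%). On day 7 (35.4%) and on day 8 (35.0%), 7 genes were higher and 1 was lower. The 7 genes were Id1, Id2, Id3, Bmp2, Bmp4, Bmp7 and Msx2 on both days. Of these, Bmp2 had passed the filter only through these days and Msx2 only through days 6 to 8. The median log2 fold change of the 10 genes on day 8 was 3.99, also with Bmp2 at its bound and Msx1 at 0, beside 0.23 over all genes tested. Over the 9 days 8 genes passed the F test, all except Smad6 and Id4, against 65.2% of all genes.

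**Figure D4:**
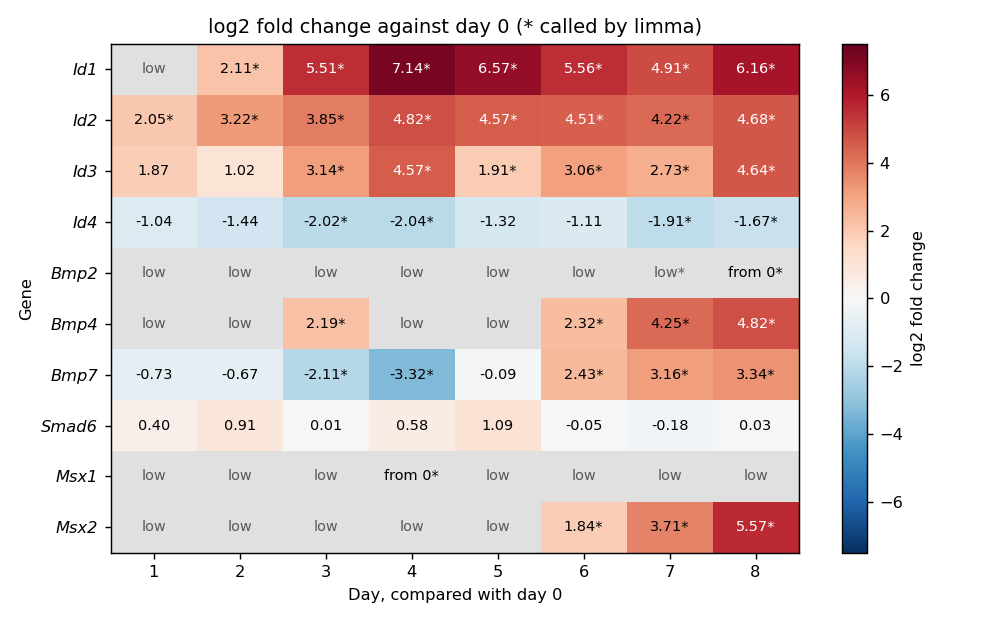
Log2 fold changes of the 10 genes (rows) on days 1 to 8 (columns) against day 0, from limma, with red for higher, blue for lower and an asterisk for a call. Grey cells marked low are those in which both days were at or below the level of 3 reads per library, and grey cells marked from 0 are those above it where day 0 had no read. Id1, Id2 and Id3 are called from day 3 on, and Bmp4, Bmp7 and Msx2 from day 6 on.

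Day 8 was also set against day 4, the day of the first Id peak. In that comparison 4 genes were called, all higher (24.7% of all genes called): Bmp2, Bmp4, Bmp7 and Msx2. Bmp2 and Msx2 are counted here although they passed the filter only through their reads of the last days. The log2 fold change was 3.68 for Bmp4 (SE 0.53, limma adjusted p 1.9e-06), from 12 reads on day 4 to 119 on day 8. For Msx2 it was 5.93 (SE 0.70, limma adjusted p 4.29e-08), from 1 read on day 4. For Bmp7 it was 6.65 (SE 0.71, limma adjusted p 7.4e-09). Id1 was lower on day 8 by a log2 fold change of -0.98 (SE 0.30, adjusted p by limma 0.0121), under the minimum fold change, and it was called lower in 6 of 15 alternative fits. The day 8 libraries of Id2 and Id3 lay within or next to the ranges of day 4.

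The names double and single went with the level of Id2. Each name was followed over the days in only 2 series of libraries, from X14 and from X18. The fits and the counts of line-day pairs below take repeated days of a series as replicates of the name. Their SEs and p-values therefore do not measure the spread between independent cultures. The same holds for the fit between the lines. Id2 was higher in the double library in 17 of 18 line-day pairs, the exception being X18 on day 1 (5.50 against 16.1 RPKM). On day 4 the double libraries had 95.8 and 114 RPKM and the single libraries 40.2 and 44.6 RPKM, and the names did not overlap on days 5 and 6 either. With day and line in the fit, the log2 fold change of double against single was 0.79 (SE 0.15, limma adjusted p 0.000384), below the minimum for a call, and 0.80 (SE 0.14, limma adjusted p 9.76e-05) without the X14 libraries of day 0. Within X14 alone it was 1.0 (SE 0.15, limma adjusted p 0.0749), and within X18 alone 0.57 (SE 0.23, limma adjusted p 0.142). Within X14 and without day 0, a fit added after the data had been seen, it was 1.06 and called (SE 0.15, limma adjusted p 0.000825). Msx2 (0.80, SE 0.30, limma adjusted p 0.0685) and Smad6 (0.52, SE 0.22, limma adjusted p 0.119) were higher in the double libraries in 10 and 13 of 18 pairs, with 4 pairs of Msx2 equal. Over days 1 to 8 the double library was higher in 15 of 16 pairs for Id2, 9 for Msx2 and 12 for Smad6. With voom 1 of the 10 genes was called between double and single (Msx2), beside 3.89% of all genes. By limma 0 of the 10 genes were called, beside 2.99% of all genes. At an unadjusted p under 0.05 there were 3 of the 10, beside 29% of all genes tested.

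**Figure D5:**
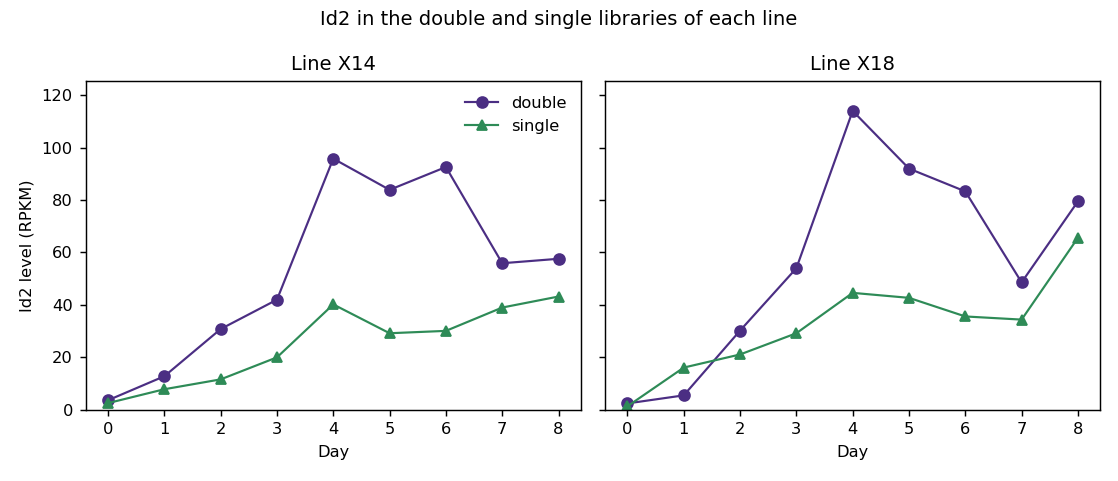
Id2 level in RPKM (linear axis from 0) by day in the double (circles) and single (triangles) library of line X14 (left) and line X18 (right), a single library per point. The double library lies above the single library of its line on every day except day 1 of X18.

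Between the lines, 0 of the 10 genes were called by limma, with Bmp4 at an unadjusted p under 0.05 (log2 fold change of X18 against X14 0.61, SE 0.23, limma adjusted p 0.214), 0 by voom, and 0.0137% of all genes by limma. The share of all genes at an unadjusted p under 0.05 was 17.4%. The change from day 0 to day 8 was compared between the names and between the lines as an interaction. Between double and single 0 of the 10 genes were called by limma and by voom, with 0 at an unadjusted p under 0.05 (7.73% of all genes) and 0.116% of all genes called by limma. Between X18 and X14 again 0 were called by limma and by voom, with 1 at an unadjusted p under 0.05 (Bmp7, 2.89, SE 1.19, limma adjusted p 0.279; 13.6% of all genes at such a p) and 0.137% of all genes called by limma.

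The wider pathway list holds 46 other genes, of which 28 were tested. On day 4, 2 of the 28 were called higher and 0 lower (18.6% of all genes called in either direction), and on day 8, 17 were higher and 0 lower (35.0%). Among the other ligands 2 of 3 tested genes were higher on day 8, Bmp8b (1.59 ± 0.609 RPKM on day 0, 10.8 ± 2.36 on day 8; SD, n = 4) and Bmp8a (2 reads on day 0, 20 on day 8). Bmp10, Gdf2 and Gdf7 had no read in any library. Among the receptors 3 of 6 tested genes were higher. Bmpr1a, a type I receptor, was the most abundant, at 13.7 ± 2.67 RPKM on day 0 and 35.7 ± 9.45 RPKM on day 8 (SD, n = 4), a log2 fold change of 1.37 (SE 0.22, adjusted p by limma 7.87e-06). The type II receptor gene Bmpr2 had a log2 fold change of 2.44 (SE 0.69, adjusted p by limma 0.00452), and Acvrl1, without reads on day 0, was at least 2.05-fold higher. Of 4 tested Smad genes Smad5 was called, at 3.31 ± 1.69 RPKM on day 0 and 8.58 ± 2.74 RPKM on day 8 (SD, n = 4).

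Of the 12 listed antagonists and decoys, 7 were tested and 6 were called higher on day 8. Among the 6, Chrd rested on few reads, with 1 on day 0 and 12 on day 8, when its lowest library had 0. Nog and Nbl1, which encode secreted ligand-binding antagonists, had no read on day 0 and were at 3.48 ± 1.98 and 11.2 ± 5.68 RPKM on day 8 (SD, n = 4), at least 3.18-fold and 10.8-fold higher. Cer1, another secreted antagonist, had 0 reads on day 0 and 24 on day 8, of which 19 were in the X14 single library, and without that library its day 8 mean was below the level that 3 reads give on day 0. Fst, which encodes follistatin, went from 7 reads to 92, of which 72 were in the same library. The ratio of the day means of Fst was 13 with that library and 5.79 without it. Of the other factors that respond to BMP, 4 of 5 tested genes were higher. Hand1 was at least 27.1-fold higher, Dlx3 had a log2 fold change of 5.81 (SE 0.64, adjusted p by limma 5.56e-09), Gata2 of 5.50 (SE 0.84, limma adjusted p 2.45e-06) and Gata3 of 4.64 (SE 0.95, limma adjusted p 0.000169). The E protein genes Tcf3 and Tcf4 were not called on day 8, and Tcf12 had a log2 fold change of 1.25 (SE 0.36, adjusted p by limma 0.00442). Median log2 fold changes on day 8 by role, with genes unread on day 0 at their bound, were 2.15 for other ligands, 1.1 for receptors, 0.71 for Smads, 1.59 for antagonists and decoys, 4.76 for the other responsive factors and 0.78 for E proteins, beside 0.23 over all genes tested.

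Markers of other cell types moved over the same days. The summed level of 8 trophoblast and surface ectoderm markers went from 81.2 to 132 RPM on day 0 and 79.6 to 148 RPM on day 4 to 2395 to 5115 RPM on day 8. On day 8, 4 of 7 tested were called higher (Krt7, Krt8, Krt18 and Cdx2). Eomes, Tfap2a and Tfap2c were not called, and Elf5 had 5 reads that day. The sum follows Tfap2c on day 0 (646 reads) and the keratin genes on day 8 (9956 reads of Krt18, 7204 of Krt8 and 2115 of Krt7). It is therefore no measure of trophoblast or surface ectoderm cells. The sum of 8 fibroblast and mesenchyme markers was 0.854 to 15.3 RPM on day 0 and 77.5 to 123 RPM on day 8, with 5 of 7 tested called higher. The sum of 8 visceral endoderm markers was 0 to 9.25 RPM on day 0 and 2.61 to 28.2 RPM on day 8, with 1 of 4 tested called higher (Foxa2) and no read of Ttr in any library. The sum of 6 haemogenic and endothelial markers was 54.5 to 160 RPM on day 0 and 2.38 to 24.4 RPM on day 8, with 1 of 3 tested called lower (Pecam1) and no read of Hbb-bh1 in any library. That sum follows Pecam1, which had 800 reads on day 0 and 57 on day 8. Tal1 went from 3 reads to 0, while Cdh5, Gata1 and Kdr went from 0 reads to 17, 4 and 2. The sum is therefore no measure of haemogenic or endothelial cells on day 0. The part of these cells in the rise of Bmp2, Bmp4, Bmp7 and Msx2 was not tested.

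For each of these genes whose daily mean reached 10 RPM, the genes with the most similar log2 values over the 36 libraries were listed, as a description, among 10886 genes. These libraries share days, so any genes with the same course over time score high. Msx2 was most like Plac1 (Pearson r 0.98) and Vgll1 (0.96), and Id1 was most like Otx2 (0.94) and Epcam (0.90). Bmp7 was most like Elf2 (0.90) and Tinagl1 (0.90), Id2 like Anxa2 (0.88) and Id1 (0.86), Bmp4 like Igf2 (0.87) and Fos (0.86), and Id3 like Acsl5 (0.80) and Adm (0.77). Smad6 had no close companion, its highest values being 0.57 with Insig1 and 0.55 with Cry1.

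The promoters of 7 of the 10 genes (all except Id1, Bmp2 and Bmp7) were in the RefSeq table used, of build GRCm38.p6. The GC-rich element GGCGCC, a sequence bound by Smad1 and Smad5 in known BMP target genes, was searched in the 250 bases before each start, where it reads the same on both strands. It was found in 9.6% of 32851 promoters of that length, and among the 7 it was found in those of Id2 and Id4. All 250 bases of Id3 and of Msx2 and 161 of those of Id2 lie in annotated exons, so for these genes the search did not cover only sequence upstream of every annotated start. The surrounding 60 bases of Id2 and Id4, which overlap no annotated exon, are shown with the element in capitals, since they hold it.
Id2, chr12:25096283-25096342, minus strand: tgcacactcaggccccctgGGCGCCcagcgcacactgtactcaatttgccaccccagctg
Id4, chr13:48260941-48261000, plus strand: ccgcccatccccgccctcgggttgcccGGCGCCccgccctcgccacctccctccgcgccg
Counted from the start site of the RefSeq entry, the element begins at position -231 in Id2 and at position -148 in Id4. The RefSeq entry of Id4 ends at chr13:48261165, before the start of the gene as counted in the deposited values (chr13:48261427). Its element therefore lies further from that start than the position given. A match of letters is a description and not a measured binding site.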

How the data were processed

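RNA-seq was measured in 36 libraries. According to the study's methods, 75 bp single-end reads from TruSeq libraries were trimmed and aligned to mm10 with tophat or hisat2 (TopHat2 2.0.12 in the submitters' processing notes) and quantified in SeqMonk. Neither the annotation version nor the use of strand in counting is given in the sources used here. Bmp4 overlaps Gm15217 and Gm15222 on the opposite strand, and both had 0 reads in all libraries. The values deposited by the authors are log2 RPKM, in which a gene without reads was written as 0.9 read. Whole reads were recovered for 100% of 25965 genes (tolerance 0.05 read). The 36 value columns were all mapped, with 0 left over.

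Genes with at least 1 RPM in at least 4 libraries (14612) were tested on the deposited log2 values with limma 3.58.1 (R 4.3.3, eBayes with trend), two-sided, with Benjamini-Hochberg adjustment over all genes tested. Names and lines were compared with day, line and label in the fit. The code was tested on simulated data. Replicate numbers pair the libraries, since equal numbers are the same line and name on each day; the median correlation of deviations from the day mean was 0.13 to 0.19 for equal numbers and -0.07 for different numbers. Depth, scaling, filter, pseudocount, test, block and libraries left out were varied. The 10 genes, the lists and the tests were chosen with earlier results of these data known. Named were all 10 genes and, per role of the pathway list, at most 4 genes with the largest change among those called on day 8. Chrd was named besides for its few reads. Ratios of pooled reads carry exact 95% intervals, which cover counting error only. Coordinates count from 1. Values of Bmp2, Cer1 and Fst without their highest day 8 library were added after the data had been seen.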

Additional observations from a re-analysis of the deposited data

Results flagged for a closer look

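In groups of 4 libraries with at least 10 reads, 1 of 57 groups looked at held a library far from the others. It was Bmp2 on day 8, at 2.32 RPKM in the X14 single library beside 0.438, 0.669 and 0.734 RPKM in the others. Chance alone flags about 1 in 20 such groups.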

How the results depend on the processing

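The 44 called fold changes kept their direction in all 643 alternative values, and 580 of these stayed past the threshold. For each of the 44, the alternative without a minimum fold change repeats the main fit and could not lose the call. It is counted in these values and in the numbers of alternative fits given above. Of 10 genes, the number called on day 1 fell from 1 to 0 without a filter, with a mean of at least 10 RPM, on log2(RPM + 1), with 75th percentile scaling, with quantile normalization, with voom and when the fit held only the days compared, and it was 0 to 1 when a replicate was left out. The share of all genes called on day 1 was 0.0% to 0.0616% in the former fits and 0.0% to 0.965% without a replicate. On day 2 it fell from 2 to 1 with thinned reads (2.31% of all genes called) and with only the days compared (0.116%). On day 3 it fell from 6 to 3 (Id1, Id2 and Id3) with only the days compared (2.66% of all genes called, in place of 8.89%) and without the X14 libraries of day 0 (24.9%). The mean of at least 10 RPM left only 4 of the 10 genes to test. The number called was then all 4 on days 7 and 8, 1 for day 8 against day 4 and all 4 in the F test. For double against single it was 1 in place of 0 with voom (Msx2, 3.89% of all genes called), with no minimum fold change (Id2, 15.7%) and within X14 without day 0 (Id2, 3.87%). Without a replicate it was 0 to 1, the 1 being Id2 without replicate 3 (0.91%) or 4 (0.89%). For X18 against X14 in the change from day 0 to day 8 it was 0 to 1 without a replicate, the 1 being Id3 without replicate 2 (log2 fold change -2.77, limma adjusted p 0.0425; 3.2% of all genes called). The replicate block gave 8 called genes on day 8, and it added a call of Bmp4 on day 5 (limma adjusted p 0.0444, in place of 0.0961), where both days were below 3 reads per library, and changed no other call. The F test of Id4 (limma adjusted p 0.105) passed with quantile normalization (0.0167) and without replicate 1 (0.0287), and that of Smad6 with quantile normalization (0.0392). Without replicate 3, Bmp7 was not called on day 6 (limma adjusted p 0.0937). The cause of these changes was not tested. Scaling by the 75th percentile moved the median log2 difference over all genes on day 8 from 0.23 to 0.02 and quantile normalization to -0.09. Genes at or below 3 reads per library, which take in Id4, Bmp2, Msx1, Msx2 and Bmp4 on most days, are beyond what this depth resolves.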
